A study of Homo sapiens with 6 samples.

Results

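Condensin and cohesin are ring-shaped machines built on SMC proteins (structural maintenance of chromosomes), and the genes described here encode the condensin subunits and the cohesin SMC pair. They were taken by gene symbol from the table of transcript levels of HCT116 cells, an established human colorectal carcinoma line. All 10 symbols, SMC2, SMC4, NCAPD2, NCAPD3, NCAPG, NCAPG2, NCAPH, NCAPH2, SMC1A and SMC3, were found among 25662 listed genes. The study compared 3 libraries of control cells with 3 libraries of cells given 1 µM BMH-21, a DNA-intercalating inhibitor of RNA polymerase I, for 24 h. The labels describe DMSO as the control treatment but title the controls 0 h, so time in culture and the drug cannot be told apart if the controls were taken at the start. All libraries come from this single line grown in McCoy's 5a medium with serum, and the study's design text calls the replicates biological.

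Condensin compacts chromosomes for mitosis by extruding loops of DNA. Its complexes I and II share the ATPases SMC2 and SMC4 and differ in a kleisin that closes the ring (NCAPH in condensin I, NCAPH2 in condensin II) and in HEAT-repeat subunits that bind DNA (NCAPD2 and NCAPG, or NCAPD3 and NCAPG2). Condensin II sits in the nucleus through interphase and starts compaction in prophase, whereas condensin I reaches chromosomes after the nuclear envelope breaks down. Cohesin, built on SMC1A and SMC3, holds sister chromatids together from S phase to anaphase and also shapes interphase chromatin loops.

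Promoter windows are shown because many genes of mitosis are switched off together in resting cells through a short element, the CHR, that is bound by the MuvB core of the DREAM complex, and through E2F sites. RefSeq windows of GRCh38.p14, running from 250 bases before to 50 bases after an annotated start, were found for 9 of the 10 genes, in 13 windows, with the start of SMC2, SMC4, NCAPD3 and SMC1A annotated at more than 1 position. NCAPH2 was not matched. Both strands were searched for the CHR word TTTGAA, for the CCAAT box by its own letters, and for the E2F core TTCCCGC with its close variants. The variants were TTCGCGC, then also the similar TTGCCGC, and lastly the similar TTGGCGC. No match overlapped one of another kind. The 6 windows below are written 5′ to 3′ along the gene with these words, or their reverse complements, in capitals. Where a gene shown has more than 1 window, the window with the most matches is given. The windows of SMC2, NCAPG2 and SMC1A are not printed, but their matches are counted below.
SMC4, chr3:160399400-160399699, plus strand: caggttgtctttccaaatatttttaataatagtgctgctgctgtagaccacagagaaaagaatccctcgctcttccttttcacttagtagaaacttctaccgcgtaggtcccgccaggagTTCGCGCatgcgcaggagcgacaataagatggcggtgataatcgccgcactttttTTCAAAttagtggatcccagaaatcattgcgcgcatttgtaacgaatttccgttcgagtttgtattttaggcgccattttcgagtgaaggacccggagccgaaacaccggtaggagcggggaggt
NCAPD2, chr12:6493852-6494151, plus strand: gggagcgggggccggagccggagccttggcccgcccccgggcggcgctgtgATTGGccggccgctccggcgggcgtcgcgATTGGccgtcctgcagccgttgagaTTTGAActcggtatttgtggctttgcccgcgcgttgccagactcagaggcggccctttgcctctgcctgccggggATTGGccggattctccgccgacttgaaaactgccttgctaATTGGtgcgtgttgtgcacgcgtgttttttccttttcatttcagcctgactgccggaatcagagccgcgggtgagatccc
NCAPG, chr4:17810729-17811028, plus strand: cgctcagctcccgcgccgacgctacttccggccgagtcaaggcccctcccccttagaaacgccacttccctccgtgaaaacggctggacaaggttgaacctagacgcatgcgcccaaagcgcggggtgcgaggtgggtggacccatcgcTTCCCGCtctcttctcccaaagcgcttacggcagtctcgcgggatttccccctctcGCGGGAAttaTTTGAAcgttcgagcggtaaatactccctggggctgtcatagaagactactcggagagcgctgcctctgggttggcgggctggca
NCAPH, chr2:96335516-96335815, plus strand: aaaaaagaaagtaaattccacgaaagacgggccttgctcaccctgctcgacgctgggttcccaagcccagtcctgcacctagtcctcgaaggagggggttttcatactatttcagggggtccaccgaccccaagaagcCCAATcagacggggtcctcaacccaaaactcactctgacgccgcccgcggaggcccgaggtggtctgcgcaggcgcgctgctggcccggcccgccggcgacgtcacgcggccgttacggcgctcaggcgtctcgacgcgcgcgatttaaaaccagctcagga
NCAPD3, chr11:134223918-134224217, minus strand: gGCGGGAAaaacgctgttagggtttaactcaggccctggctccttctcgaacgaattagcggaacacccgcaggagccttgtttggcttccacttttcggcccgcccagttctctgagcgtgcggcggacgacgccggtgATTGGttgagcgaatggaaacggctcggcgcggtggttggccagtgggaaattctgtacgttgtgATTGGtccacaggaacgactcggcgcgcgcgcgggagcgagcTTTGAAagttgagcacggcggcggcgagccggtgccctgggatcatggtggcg
SMC3, chr10:110567445-110567744, plus strand: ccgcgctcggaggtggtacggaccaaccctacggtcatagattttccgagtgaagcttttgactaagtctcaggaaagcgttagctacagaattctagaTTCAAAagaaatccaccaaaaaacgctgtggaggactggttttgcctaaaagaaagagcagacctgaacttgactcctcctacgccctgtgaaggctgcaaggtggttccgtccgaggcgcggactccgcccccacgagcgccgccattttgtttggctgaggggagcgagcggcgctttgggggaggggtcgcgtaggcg

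The CHR word was present in 7 of the 13 windows (SMC2, SMC4, NCAPD2, NCAPG, NCAPD3, NCAPG2 and SMC3), and 15.2% of all 35116 promoter windows in the RefSeq table held it. In NCAPG it began 35 bases before the start, just after an E2F core read on the opposite strand at 45 bases before the start. In NCAPD2 it began 145 bases before the start, and 4 CCAAT boxes on the opposite strand lay at 199, 170, 70 and 30 bases before the start. The CHR word began 75 bases before the start in SMC4 and 151 bases before it in SMC3. In SMC2 and NCAPD3 it began 3 bases before the start and ran across it. In NCAPG2 it lay after the start, from transcribed base 36. CCAAT was found in 3 windows (NCAPD2, NCAPH and NCAPD3) against 34.6% of all windows. An E2F core was found in 4 (SMC4, NCAPG, NCAPD3 and SMC1A) against 13.0%. The NCAPH window held a single CCAAT box and neither of the other words. SMC3 held the CHR word, and its transcript was not called changed in the main comparison. These are matches of letters in a fixed window, not tested sites.

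Levels are TPM, a share of all transcripts in a library that is corrected for transcript length. Depth per library is unknown, and TPM totals ran from 990744 to 992038 over the listed genes. The epithelial genes EPCAM, CDH1, KRT8, KRT18 and KRT19 were all detected, with summed levels of 5127 to 5362 TPM in controls against 11399 to 12987 TPM after BMH-21. Of 13 markers of fibroblasts, leukocytes and endothelium in the table, 12 stayed under 1 TPM in every library. The exception was COL1A1, at 3.64 to 4.76 TPM in controls against 1.83 to 3.23 TPM after BMH-21. Its part in the results was not tested. Control replicate 1 was the lowest of its group for 63.2% of 12041 genes kept, and BMH-21 replicate 3 was the highest of its group for 65.3%. Control replicate 1 was also the lowest control library for all 10 condensin and cohesin SMC genes, so the results were also computed without each library.

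After BMH-21, transcripts of every condensin subunit that could be tested were lower. Genes were kept for testing if 3 or more of the 6 libraries reached 1 TPM, and a gene was called changed at a limma adjusted p under 0.05 (Benjamini-Hochberg, two-sided, on log2(TPM + 1)). Of the 8 condensin genes 7 were kept, and all 7 were called lower, with a median log2 change of -2.61. NCAPG was kept through its controls alone, as all its BMH-21 libraries were under 1 TPM. With no filter all 8 entered the test, and 7 were called lower. Across all genes kept, 36.4% were called, 16.9% lower and 19.4% higher, and the median was 0.06. The control and BMH-21 libraries did not overlap for these 7 genes, where 22.0% of all genes kept had every BMH-21 library under every control. Without control replicate 1 and BMH-21 replicate 3 together, all 7 were again called lower, with a median of -2.88. In that setting 4144 of all genes kept were called lower, against 2040 with all libraries, and the median over all was -0.067. Control replicate 1 was the lowest control for each of the 7, so leaving it out could only raise their control means. Values are shares of a bulk library, so fewer cells with the transcript and less transcript per cell cannot be told apart.

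**Figure D1:**
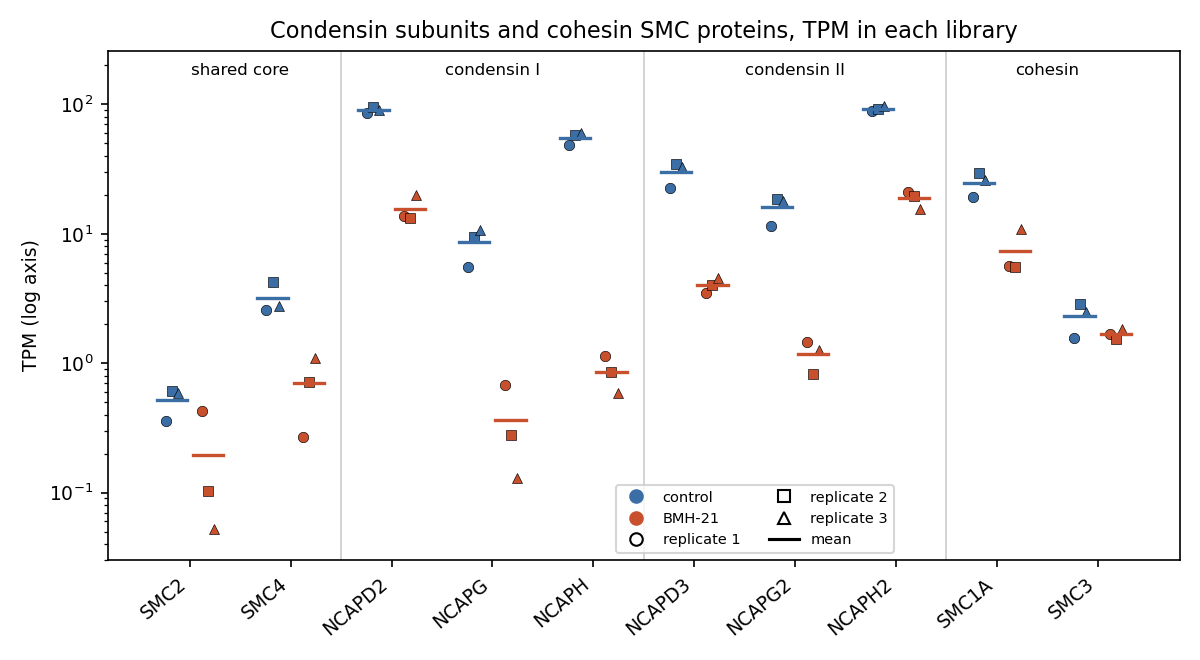
TPM (log axis) of the 10 genes in each library, with controls in blue, BMH-21 in red, a marker shape for each replicate number and a bar at the group mean. The groups are apart for 8 genes and overlap for SMC2 and SMC3, and NCAPH shows the widest gap, from a mean of 55.4 TPM to 0.86 TPM.

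The kleisin of condensin I, NCAPH (chromosome 2, 96335787 to 96373845, GRCh38), had the largest fall among the 10 genes. It was at 48.9, 57.8 and 59.6 TPM in control replicates 1 to 3 and at 1.13, 0.85 and 0.59 TPM in BMH-21 replicates 1 to 3. Every control was far above every BMH-21 library. The mean went from 55.4 ± 5.74 to 0.86 ± 0.27 TPM (SD, n = 3 per group), which left 1.55% of the control level. Its log2 change of -4.93 (SE 0.16, limma adjusted p = 2.0e-07) was the 11th lowest of the 12041 genes. With a pseudocount of 0.1 the log2 change was -5.89.

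NCAPG (chromosome 4, 17810902 to 17844862), a HEAT-repeat subunit of condensin I, was at 5.58, 9.41 and 10.7 TPM in controls against 0.68, 0.28 and 0.13 TPM after BMH-21. All BMH-21 libraries were under 1 TPM and all controls above 5 TPM. The mean fell 23.6-fold, to 0.36 ± 0.28 from 8.57 ± 2.67 TPM, with a log2 change of -2.79 (SE 0.25, limma adjusted p = 5.3e-05). Because the BMH-21 values lie below the pseudocount of 1, that log2 change depends on it, and a pseudocount of 0.1 gave -4.36. NCAPG exons share 1631 bases with LCORL on the opposite strand, and LCORL was at a mean of 3.18 TPM in controls against 1.16 TPM after BMH-21. The sources do not state whether strand was used in counting.

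The other HEAT-repeat subunit of condensin I, NCAPD2 (chromosome 12, 6493356 to 6531955), was at a higher level in every library than NCAPG. Its controls were at 86.4, 95.7 and 89.8 TPM and its BMH-21 libraries at 13.7, 13.1 and 19.9 TPM, with replicate 3 the highest. The mean went from 90.6 ± 4.69 to 15.6 ± 3.74 TPM, 17.2% of the control level (log2 change -2.49, SE 0.15, limma adjusted p = 4.7e-06). Its exons share 486 bases with MRPL51, which lies on the opposite strand and was at 137 TPM in controls against 162 TPM after BMH-21.

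Condensin II was reduced as well. Its kleisin NCAPH2 (chromosome 22, 50508216 to 50523472) was at 88.6, 92.05 and 97.9 TPM in controls against 21.1, 19.5 and 15.7 TPM after BMH-21. Replicates were close to each other in both groups, and the groups were apart. The mean fell from 92.8 ± 4.70 to 18.8 ± 2.78 TPM, 20.2% of the control level (log2 change -2.26, SE 0.12, limma adjusted p = 2.1e-06).

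NCAPD3 (chromosome 11, 134150119 to 134225454), a HEAT-repeat subunit of condensin II, was at 22.8, 34.7 and 33.0 TPM in controls against 3.51, 3.99 and 4.58 TPM after BMH-21. Control replicate 1 was the lowest control but was well above every BMH-21 library. The mean fell 7.49-fold, from 30.2 ± 6.46 to 4.03 ± 0.53 TPM (log2 change -2.61, SE 0.18, limma adjusted p = 1.1e-05). Its exons overlap those of JAM3 and, over fewer bases, VPS26B on the opposite strand. JAM3 was at 0.13 TPM in controls against 0.049 TPM after BMH-21, and VPS26B at 21.2 against 24.3 TPM.

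NCAPG2 (chromosome 7, 158631311 to 158704829), the counterpart of NCAPG in condensin II, was at 11.4, 18.5 and 18.05 TPM in controls against 1.45, 0.83 and 1.27 TPM after BMH-21. The fall of the mean was 13.5-fold, from 16.0 ± 3.97 to 1.18 ± 0.32 TPM, and the groups did not overlap. The log2 change was -2.94 (SE 0.22, limma adjusted p = 1.7e-05), and -3.65 with a pseudocount of 0.1.

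The ATPases that both condensins need had the lowest levels of all condensin transcripts in controls. SMC4 (chromosome 3, 160399274 to 160434962) was at 2.59, 4.27 and 2.77 TPM in controls against 0.27, 0.72 and 1.10 TPM after BMH-21. The groups were apart, but the values after BMH-21 spread widely for their size. The mean fell 4.61-fold, from 3.21 ± 0.92 to 0.70 ± 0.42 TPM, with a log2 change of -1.32 (SE 0.23, limma adjusted p = 0.0024) that became -2.18 with a pseudocount of 0.1. SMC4 exons share 1561 bases with TRIM59 and 607 with IFT80 on the opposite strand, and TRIM59 was at 3.79 TPM in controls against 1.31 TPM after BMH-21.

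SMC2 (chromosome 9, 104094260 to 104141417), the partner of SMC4, did not reach 1 TPM in any library and was not tested. It was at 0.36, 0.61 and 0.59 TPM in controls against 0.43, 0.10 and 0.05 TPM after BMH-21. BMH-21 replicate 1 lay inside the control range, while the other BMH-21 libraries lay below it. The group means were 0.52 ± 0.14 and 0.19 ± 0.20 TPM. With no filter on low values the gene entered the test, with a log2 change of -0.36 short of the threshold (limma adjusted p = 0.13). Every SMC2 value lies below the pseudocount of 1, which shrinks that log2 change, and the mean after BMH-21 was 37.4% of the control mean.

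Of the SMC pair of cohesin, SMC1A was called lower and SMC3 was not. SMC1A (chromosome X, 53374149 to 53422728) was at 19.2, 29.3 and 26.2 TPM in controls against 5.64, 5.55 and 10.8 TPM after BMH-21. BMH-21 replicate 3 stood above the other BMH-21 libraries and below every control. The mean fell 3.40-fold, from 24.9 ± 5.21 to 7.33 ± 3.01 TPM, and the gene was called lower (log2 change -1.67, SE 0.25, limma adjusted p = 0.0011).

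SMC3 (chromosome 10, 110567691 to 110604636) was at 1.56, 2.85 and 2.49 TPM in controls against 1.67, 1.54 and 1.84 TPM after BMH-21. Control replicate 1 fell among the BMH-21 libraries, so the groups overlapped. The log2 change was -0.28 (SE 0.18, 95% interval -0.70 to 0.14, limma adjusted p = 0.27). Without the outlying libraries control replicate 1 and BMH-21 replicate 3, 4144 of the 12041 genes kept were called lower, against 2040 with all libraries. In that setting SMC3 passed as lower, at -0.49 (limma adjusted p = 0.014). It also passed, at -0.44 (limma adjusted p = 0.0085), with the trend on GC content and length removed, a setting chosen after seeing the data.

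Ratios of TPM within a library do not depend on scaling between libraries, and 6 were fixed for comparison. The ratio of the kleisins NCAPH to NCAPH2 was 0.55, 0.63 and 0.61 in controls and 0.054, 0.043 and 0.038 after BMH-21. The ratio was lower in every BMH-21 library than in every control, with a difference of means of -3.74 on the log2 scale. The groups were apart, and the exact two-sided permutation test gave p = 0.10, the smallest that 3 against 3 allows (0.20 adjusted over the 6 ratios). SMC1A to SMC3 showed the same kind of separation, with ratios of 12.3, 10.3 and 10.5 in controls and 3.37, 3.61 and 5.87 after BMH-21 (exact permutation p = 0.10, 0.20 adjusted). NCAPG to NCAPG2 went from 0.49, 0.51 and 0.59 to 0.47, 0.34 and 0.10 with the same p values, but BMH-21 replicate 1 lay just under the lowest control. NCAPD2 to NCAPD3 was at 2.72 to 3.79 in controls and 3.29 to 4.34 after BMH-21, and these ranges overlapped (exact permutation p = 0.20, 0.30 adjusted). The ratios SMC2 to SMC4 and SMC2 to SMC3 also overlapped between the groups (exact permutation p = 0.90 and 0.40). SMC2 to SMC4 ranged from 0.047 to 1.595 after BMH-21, where both genes were close to 0.

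**Figure D2:**
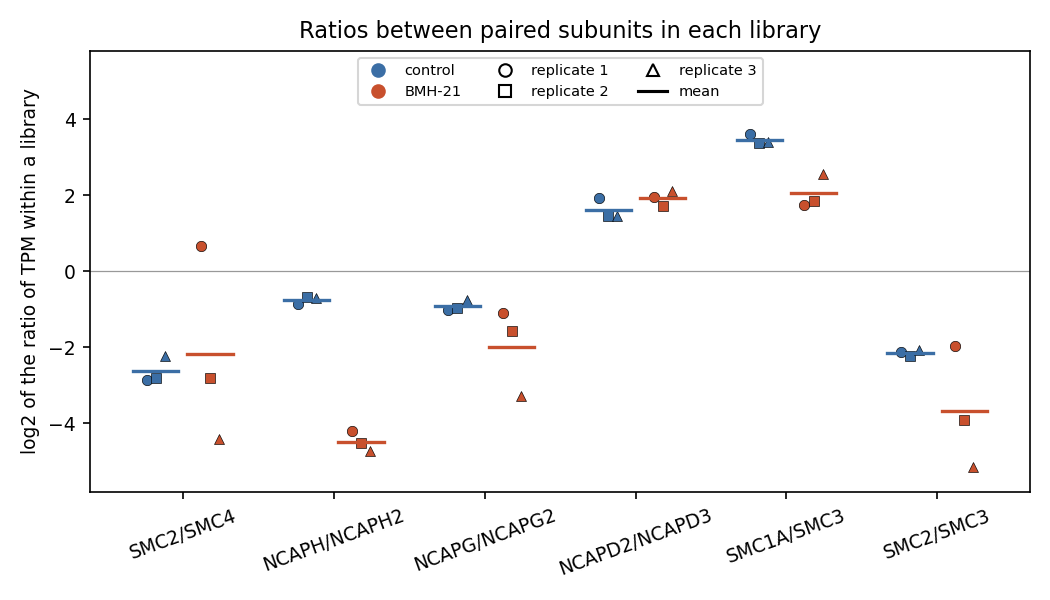
Log2 of the ratio of TPM between gene pairs within each library, with controls in blue, BMH-21 in red, a marker shape for each replicate number and a bar at the group mean. The groups are farthest apart for NCAPH/NCAPH2, with means of -0.75 in controls and -4.49 after BMH-21.

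Summed over subunits, the share of condensin I transcripts was lower after BMH-21, least so in BMH-21 replicate 3. NCAPD2, NCAPG and NCAPH together were at 141, 163 and 160 TPM in controls against 15.5, 14.3 and 20.6 TPM after BMH-21. NCAPD3, NCAPG2 and NCAPH2 together were at 123, 145 and 149 TPM and then at 26.0, 24.4 and 21.5 TPM. The condensin I subunits took 51.8% to 53.4% of the sum of these 6 genes in controls. After BMH-21 they took 37.4% and 37.0% in replicates 1 and 2, and 48.9% in replicate 3. The subunits did not fall alike. In condensin I the means fell 64.6-fold for NCAPH, 23.6-fold for NCAPG and 5.82-fold for NCAPD2. In condensin II they fell 4.95-fold for NCAPH2, 13.5-fold for NCAPG2 and 7.49-fold for NCAPD3. The lower share was thus not seen in every pair of counterparts, as NCAPD2 to NCAPD3 was not lower after BMH-21. The share without NCAPH was not computed, and no test was made of these sums.

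Control levels were higher for genes with GC-richer transcripts, a comparison made after the values were seen. GC content was taken from the longest coding transcript of GENCODE release 29, which need not be the isoform expressed. The genes under 40% GC, which are SMC2, SMC4, SMC3 and NCAPG, had control means of 0.52 to 8.57 TPM. NCAPG2, at 41.4% GC, had a mean of 16.0 TPM. SMC1A, NCAPD3 and NCAPH, at 47.2% to 47.6% GC, had means of 24.9 to 55.4 TPM. NCAPD2, at 52.5%, and NCAPH2, at 62.2%, had 90.6 and 92.8 TPM. Over the 10 genes Spearman's rho between control mean and GC content was 0.964, and over 15270 protein-coding genes it was 0.161, each given as a description over genes that share the same libraries. NCAPH2 and SMC2, subunits of the same complex, had control means 179-fold apart.

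**Figure D3:**
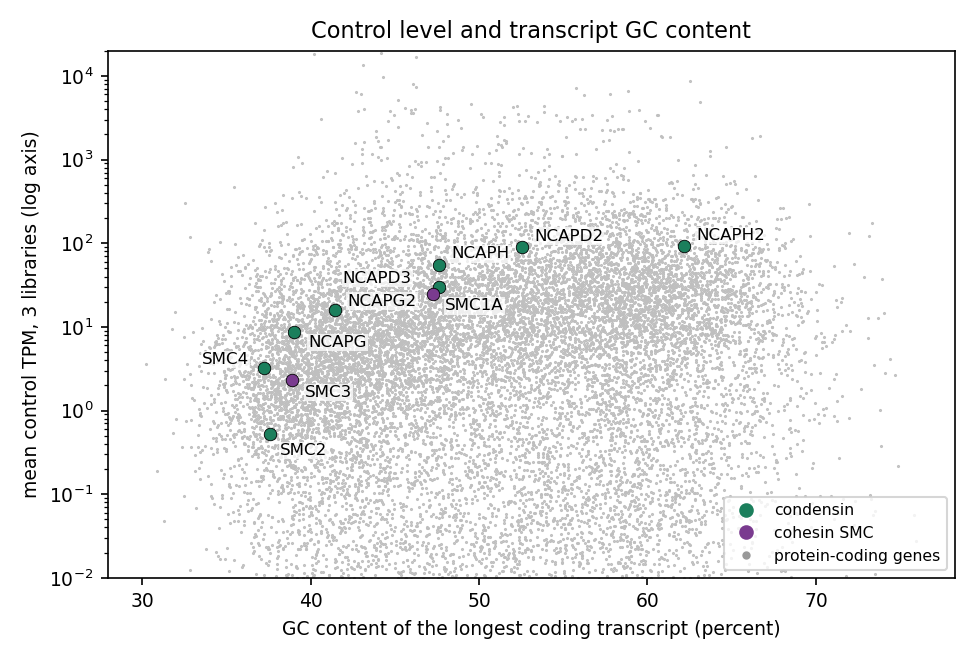
Mean control TPM over 3 libraries (log axis, cut at both ends) against the GC content of the longest coding transcript, with protein-coding genes in grey, condensin genes in green and cohesin SMC genes in purple. Of the 10 genes, SMC2, SMC4 and SMC3 have the lowest levels and the lowest GC content, and NCAPD2 and NCAPH2 have the highest levels.

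GC content also moved with library and with the comparison. Among protein-coding genes kept, control replicate 1 was the lowest control for 88.1% of genes under 40% GC and for 23.5% of genes at 60% GC or more. The median log2 change was 0.31 in the former class, with 7.09% called lower, and -0.10 in the latter, with 27.3% called lower. Among the 9 condensin and cohesin SMC genes kept, Spearman's rho between log2 change and GC content was -0.367. With the GC and length trend removed, the 7 condensin genes were again all called lower, with a median of -2.62.

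In the order of control means, NCAPH2 and NCAPD2 overlapped at the top, followed by NCAPH, then by NCAPD3 and SMC1A, whose ranges overlapped. NCAPG2 and NCAPG came next, each apart from its neighbours, then SMC4 and SMC3, which overlapped, and SMC2 was lowest. After BMH-21, NCAPH2 and NCAPD2 still overlapped at the top, and SMC1A and NCAPD3 followed. NCAPH, at 0.86 TPM, then overlapped with NCAPG2, SMC4 and NCAPG and lay under SMC3, which was at 1.69 ± 0.15 TPM.

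Of the remaining cohesin subunits, 1 was called changed. RAD21, the kleisin of mitotic cohesin, was at 25.0, 44.7 and 43.9 TPM in controls against 16.8, 15.1 and 21.0 TPM after BMH-21. The groups were apart, and RAD21 was called lower (log2 change -1.03, SE 0.22, limma adjusted p = 0.0071). Of 7 other cohesin subunit genes, 4 were kept, 1 was called lower and none higher, a count too small to set apart from the 16.9% called lower over all genes kept. STAG1 and STAG2, the alternative HEAT-repeat subunits of cohesin, had log2 changes of -0.03 and 0.41 short of the threshold (limma adjusted p = 0.91 and 0.20). The meiotic kleisin REC8 was at -0.35 (limma adjusted p = 0.31) and passed as lower, at -0.64, without control replicate 2 (limma adjusted p = 0.033). The meiotic genes STAG3, RAD21L1 and SMC1B stayed under 1 TPM in every library and were not tested.

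Among 11 genes that load, release or secure cohesin, 9 were kept, 3 were called lower and 1 higher, beside 16.9% lower and 19.4% higher over all genes kept. Their median log2 change of -0.15 rested on single libraries, at -0.28 without control replicate 1, -0.052 without control replicate 3 and -0.00041 without BMH-21 replicate 2. It was -0.39 without both control replicate 1 and BMH-21 replicate 3, -0.26 with the GC and length trend removed, and -0.62 over the 5 genes with a mean of at least 5 TPM. CDCA5, which encodes sororin, the factor that locks cohesin on replicated DNA, was at 89.5, 89.2 and 87.9 TPM in controls against 2.10, 2.20 and 1.47 TPM after BMH-21. Its fall on the log2(TPM + 1) scale was close in size to that of NCAPH (log2 change -4.95, SE 0.13, limma adjusted p = 9.3e-08). With a pseudocount of 0.1 the log2 change was -5.48 for CDCA5 and -5.89 for NCAPH. DDX11, a helicase needed for cohesion, fell from 39.8 ± 1.79 to 6.93 ± 1.14 TPM (SD, n = 3, limma adjusted p = 3.3e-06). CTCF, which halts cohesin at loop boundaries, was called lower at -0.62 (limma adjusted p = 0.045), although its groups overlapped. That call was lost without control replicate 2 or 3 or without BMH-21 replicate 1 or 2 (limma adjusted p = 0.12 to 0.14). It was also lost with no filter, no variance trend or mitochondrial transcripts left out (limma adjusted p = 0.11, 0.063 and 0.052). ESCO1, an acetyltransferase for SMC3, was called higher at 0.57 (limma adjusted p = 0.029), from 0.72 ± 0.27 to 1.53 ± 0.27 TPM. All its controls were under 1 TPM, so it was kept for testing through its BMH-21 libraries alone. It was not called without control replicate 3, BMH-21 replicate 1 or BMH-21 replicate 2 (limma adjusted p = 0.083 to 0.11), nor with no filter (limma adjusted p = 0.063) or the GC and length trend removed (limma adjusted p = 0.27).

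The release factors WAPL and PDS5A had log2 changes of 0.10 and -0.01, and PDS5B and HDAC8, the SMC3 deacetylase, had -0.18 and -0.15, none of them called (limma adjusted p = 0.44 to 0.98). Without both control replicate 1 and BMH-21 replicate 3, PDS5A and HDAC8 passed as lower, at -0.39 and -0.43 (limma adjusted p = 0.024 for each). In that setting 4144 of the 12041 genes kept were called lower, against 2040 with all libraries. The loader subunit MAU2 had 0.45 and missed the threshold (limma adjusted p = 0.061). All its BMH-21 libraries were above all controls, and it passed as higher in 6 of 18 alternatives, among them without BMH-21 replicate 1 (limma adjusted p = 0.040). Its partner NIPBL, at means of 0.59 ± 0.34 and 0.88 ± 0.54 TPM, was not tested. ESCO2, the S phase acetyltransferase for SMC3, was not kept either, at 0.96, 2.24 and 2.21 TPM in controls against 0.12, 0.26 and 0 TPM after BMH-21. With no filter it was lower (log2 change -1.28, limma adjusted p = 0.010).

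The genes that end or guard cohesion at anaphase were low after BMH-21. Separase, encoded by ESPL1, fell from 27.7 ± 0.96 to 0.95 ± 0.14 TPM (SD, n = 3, log2 change -3.89, limma adjusted p = 3.3e-07). Its inhibitor securin, encoded by PTTG1, fell from 199 ± 14.96 to 23.3 ± 7.13 TPM (limma adjusted p = 7.9e-06). SGO1, which protects centromeric cohesin, went from 3.28 ± 0.38 to 0.093 ± 0.060 TPM (limma adjusted p = 1.4e-05). Of the 4 genes of this list 3 were kept, and all 3 were called lower, beside 16.9% called lower over all genes kept. SGO1 was kept through its controls alone. SGO2, under 1 TPM throughout, was not kept, and with no filter it was lower (log2 change -0.58, limma adjusted p = 0.034).

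The third SMC complex, SMC5/6, which acts in DNA repair, showed small changes both ways. Of 9 genes 5 were kept, 3 were called lower and 1 higher, beside 16.9% and 19.4% over all genes kept. The median log2 change was -0.69 over these 5 genes, -0.077 over all 9 with no filter and -0.27 over the 4 with a mean of at least 5 TPM. The SUMO ligase NSMCE2 and the kleisin NSMCE4A fell by 0.69 and 0.74 on the log2 scale (limma adjusted p = 0.0025 and 0.0020). NSMCE3 rose from 6.10 ± 0.65 to 9.78 ± 1.25 TPM (SD, n = 3, limma adjusted p = 0.016), a call lost without control replicate 3 (limma adjusted p = 0.050). SLF2, which helps bring the complex to damaged DNA, had -0.88 (limma adjusted p = 0.013) and missed the threshold without BMH-21 replicate 1 or 2 (limma adjusted p = 0.053 and 0.056). NSMCE1, at 97.5 ± 4.01 and 108 ± 10.9 TPM, was not called (limma adjusted p = 0.24), and passed as higher without BMH-21 replicate 3, and without it and control replicate 1 (limma adjusted p = 0.027 and 0.019). SMC5 was at 0.47 to 1.22 TPM in controls against 0.63 to 0.94 TPM after BMH-21, and SMC6, SLF1 and EID3 were under 1 TPM in every library. None of these 4 was tested.

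**Figure D4:**
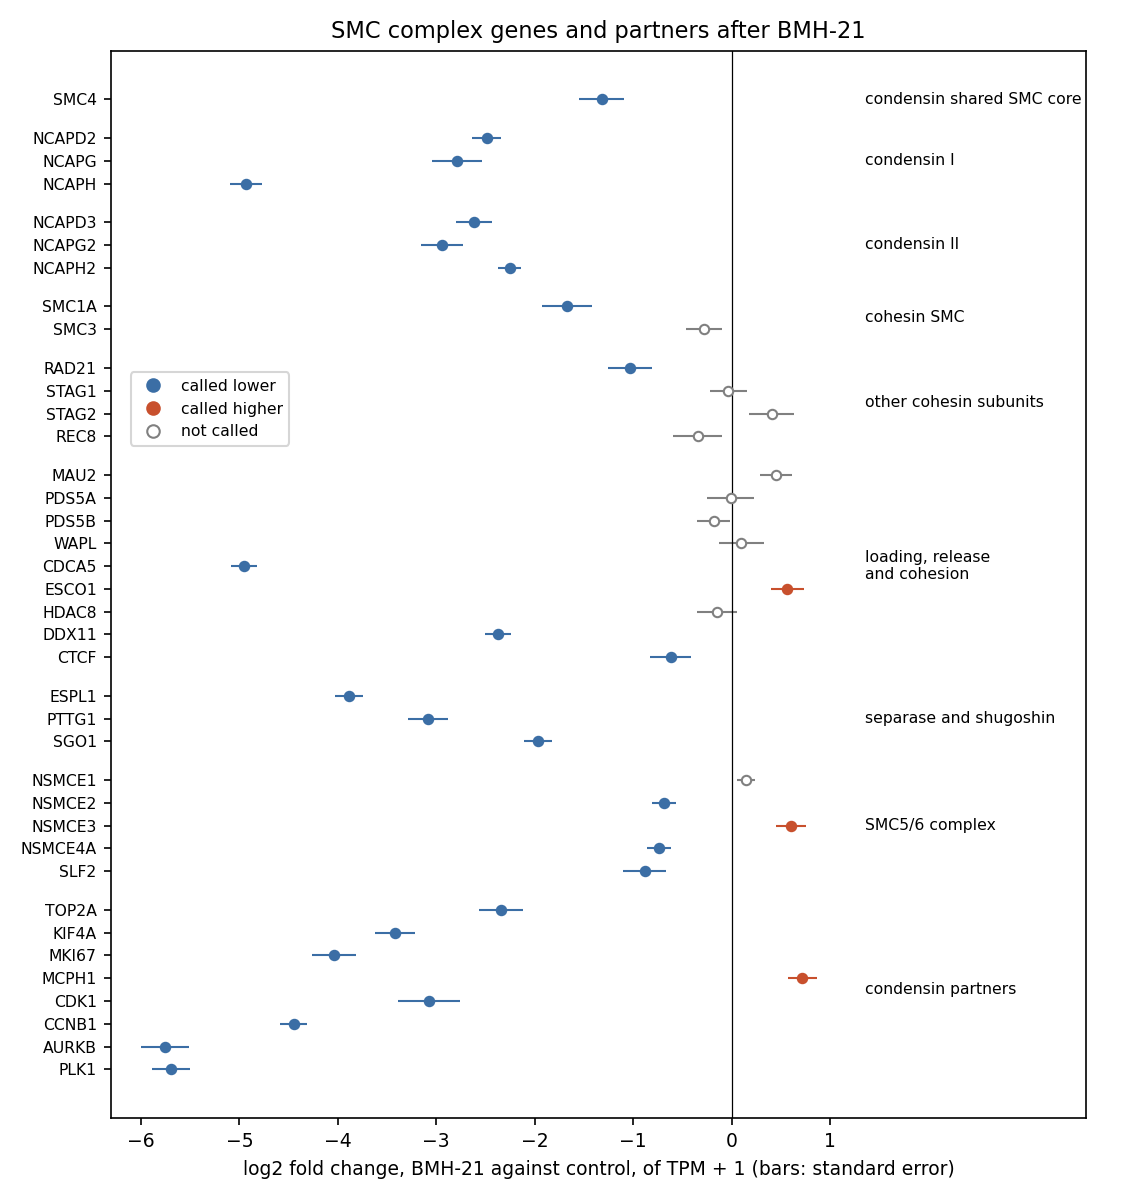
Log2 change of TPM + 1, BMH-21 against control, with its standard error, for the kept genes of the condensin and cohesin complexes and of the companion lists, in blue where called lower, in red where called higher and open where not called. NCAPH and CDCA5 lie near -5, the other condensin genes between -2.94 and -1.32, and the release factors WAPL and PDS5A near 0.

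Partners of condensin on mitotic chromosomes, and regulators of condensin or of mitosis, were measured in the same libraries. Of 8 such genes 7 were called lower and 1 higher, beside 16.9% lower and 19.4% higher over all genes kept. The median log2 change was -3.73, against 0.06 over all genes kept. As for the other lists, the genes were chosen with earlier results of these data known. TOP2A, KIF4A and MKI67 were kept through their controls alone, and with no filter the counts were again 7 lower and 1 higher. TOP2A, the topoisomerase that untangles sister DNA, fell from 5.05 ± 1.67 to 0.16 ± 0.04 TPM (SD, n = 3, limma adjusted p = 7.1e-05). Its log2 change was -2.34, and -4.27 with a pseudocount of 0.1. KIF4A, a chromokinesin that binds condensin I, had -3.42, or -4.65 with a pseudocount of 0.1, and its mean fell 29.5-fold. MKI67, the coat protein Ki-67 of mitotic chromosomes, had -4.04, or -5.87 with a pseudocount of 0.1, and its mean fell 86.3-fold. CDK1 and CCNB1, the kinase and cyclin that drive entry into mitosis, had -3.08 and -4.45 (23.5-fold for CCNB1), and the kinases AURKB and PLK1 had -5.75 and -5.69. MCPH1, an inhibitor of condensin II, went the other way, from 4.66, 4.76 and 5.27 TPM in controls to 7.80, 8.79 and 9.54 TPM after BMH-21. Its rise was 1.78-fold, and every BMH-21 library was above every control, as for 29.6% of all genes kept (log2 change 0.72, SE 0.15, limma adjusted p = 0.0056). It was called higher in all 18 alternatives run.

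The profiles most like the mean condensin profile were those of PRIM1, CDCA2, EME1, MTFR2 and RFC5, by Euclidean distance over the 6 libraries on the centred log2(TPM + 1) scale. Distances ran from 0.11 for PRIM1 to 0.24 for RFC5, and the mean was taken over the 7 condensin genes kept. The nearest of the condensin genes to their own mean was NCAPD3, at 0.32, and the farthest was NCAPH, at 2.68. For the mean of SMC1A and SMC3 the nearest genes were CDK5RAP2, SLC25A40, FAM111A, E2F7 and FKBP5, at 0.099 to 0.17. SMC1A and SMC3 each lay 0.90 from that mean, and their distances are equal by construction because no other gene entered it.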

How the data were processed

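TPM values per gene and library were made by the authors and deposited in 1 table, with replicates kept separate. The submitters' processing notes list STAR, Salmon and the build GRCh38 with no version, while annotation, strand setting and filters are not stated. The labels name polyA RNA as the molecule, while the labels' protocols describe removal of ribosomal RNA. TPM keeps no depth, so no counting interval is given.

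The comparison used limma 3.58.1 (R 4.3.3) on log2(TPM + 1), with an intensity trend and no covariate, over 12041 genes with TPM of at least 1 in at least 3 of 6 libraries. The fit was tested on simulated data. SDs are of TPM over 3 libraries. Coordinates, transcript lengths and GC content come from GENCODE release 29. Ratios of gene pairs were tested by exact permutation with SciPy 1.17.1. All 10 genes and all genes of the companion lists were named whatever their result, with the 5 nearest profiles, where 8 condensin genes were planned and 7 were kept. Genes and lists were chosen with earlier results of these data known. Alternatives changed the pseudocount, filter, scaling, variance trend, replicate block, libraries and GC trend. Any pair of libraries had at most 1 gene of equal value above 0.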

Additional observations from a re-analysis of the deposited data

How the results depend on the processing

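The 7 condensin genes were called lower in 17 of 18 alternatives, and with a mean TPM of at least 5 required, 5 were kept and all 5 were lower. SMC1A was called lower in all 18. With libraries left out, 3173 genes (without BMH-21 replicate 2) to 7061 genes (without both control replicate 1 and BMH-21 replicate 3) were called, against 4380. In the latter setting 4144 genes were called lower, against 2040 with all libraries, and the cohesin SMC genes called went from 1 to 2. The GC and length correction, added after seeing the data, also gave 2. With libraries left out, 1 to 2 other cohesin subunit genes (2 without control replicate 2) were called. For loading, release and cohesion, 2 (without control replicate 3 or BMH-21 replicate 2) to 6 were called. Among the 10 genes and the companion genes, no call changed direction under any alternative. A replicate block gave 4608 genes called and 7 condensin genes lower. Libraries that share a number did not deviate together (correlations of -0.14 to 0.044), and the labels do not say that a number marks a shared culture. Depth is unknown, so genes near 0, SMC2 above all, cannot be given a counting limit. The causes of these shifts were not tested.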
